A study of Mus musculus with 12 samples.

Results

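A set of 39 genes of the cell division cycle and DNA replication was followed in mouse macrophages exposed to tunicamycin (Tm), to lipopolysaccharide (LPS) or to both. The genes were taken by symbol from a table of 24346 genes, and all 39 were found. By role they comprised 7 genes of the G1/S transition (the cyclins Ccnd1, Ccnd2, Ccnd3, Ccne1 and Ccne2 and the transcription factors E2f1 and E2f2), 9 genes of origin licensing and replication (Cdc6, Cdt1, Mcm2 to Mcm7 and Pcna) and 4 genes of nucleotide synthesis (Rrm1, Rrm2, Tyms and Tk1). A further 12 encode mitotic cyclins, kinases and regulators (Ccna2, Ccnb1, Ccnb2, Cdk1, Cdc20, Plk1, Aurka, Aurkb, Bub1, Bub1b, Birc5 and Foxm1), and 7 act on chromosomes, the spindle or cytokinesis (Top2a, Mki67, Kif11, Kif20a, Cenpa, Cenpe and Ect2).

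The cells were wild-type bone-marrow-derived macrophages, obtained by growing marrow cells with M-CSF, a macrophage growth factor, and 10% serum over 7 days. There were 3 libraries in each of 4 groups. The Tm plus LPS group had received Tm, an inhibitor of the first step of N-linked glycosylation that causes protein-folding stress in the endoplasmic reticulum, at 5 ug/ml for 3 h and then LPS, the bacterial ligand of TLR4, at 1 ng/ml for 3 h. The Tm group had Tm alone, the LPS group LPS alone, and the control group neither. The sources used here do not give how long Tm alone was left on, whether it stayed during LPS, or whether the libraries came from separate mice or cultures. The p-values therefore rest on variation among libraries whose source is unknown and which may be technical.

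In the cell cycle, D-type cyclins and their kinases release E2F factors from the retinoblastoma protein, and E2F then drives cyclin E and the genes of DNA replication. CDC6 and CDT1 load the MCM helicase on origins in G1, and the late genes of G2 and mitosis are switched on afterwards by the MuvB, B-MYB and FOXM1 proteins, in many cases through a promoter element called CHR. Macrophages grown in M-CSF still divide, M-CSF being their mitogen, and LPS is known to stop that division.

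Promoters of 6 genes are shown because these genes stand for the patterns of response described further on. Cdc6 and Cdt1 had their lowest mean with LPS alone, Mcm6, Rrm2 and Cdk1 were lower with Tm and did not pass with LPS alone, and Plk1 was lower with either. Each sequence runs 5′ to 3′ on the gene's own strand, from 250 bases before to 50 bases after the transcription start, in RefSeq's GRCm38.p6 annotation. The windows are chr11:98907901-98908200 on the plus strand for Cdc6, chr8:122567765-122568064 on the plus strand for Cdt1 and chr1:128359656-128359955 on the minus strand for Mcm6. They are chr12:24708004-24708303 on the plus strand for Rrm2, chr10:69352863-69353162 on the minus strand for Cdk1 and chr7:122159185-122159484 on the plus strand for Plk1. Capitals mark E2F site letters (TTTCCCGC, TTTGGCGC, TTTCGCGC or TTTGCCGC), the CHR letters TTTGAA and the CCAAT box (CCAAT), each searched on both strands, so that GCGGGAAA and ATTGG are matches on the other strand.
Cdc6: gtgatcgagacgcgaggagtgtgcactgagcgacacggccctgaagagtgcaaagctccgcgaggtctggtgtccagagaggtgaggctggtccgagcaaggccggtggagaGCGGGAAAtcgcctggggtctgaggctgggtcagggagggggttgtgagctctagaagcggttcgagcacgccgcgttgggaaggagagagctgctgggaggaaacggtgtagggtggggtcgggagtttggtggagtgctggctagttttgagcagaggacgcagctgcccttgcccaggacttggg
Cdt1: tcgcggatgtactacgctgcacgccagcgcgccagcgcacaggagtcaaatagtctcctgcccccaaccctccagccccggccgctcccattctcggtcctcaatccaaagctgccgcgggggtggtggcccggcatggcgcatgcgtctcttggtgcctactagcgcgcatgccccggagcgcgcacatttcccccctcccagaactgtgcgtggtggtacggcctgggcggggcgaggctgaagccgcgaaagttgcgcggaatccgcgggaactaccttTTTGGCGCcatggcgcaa
Mcm6: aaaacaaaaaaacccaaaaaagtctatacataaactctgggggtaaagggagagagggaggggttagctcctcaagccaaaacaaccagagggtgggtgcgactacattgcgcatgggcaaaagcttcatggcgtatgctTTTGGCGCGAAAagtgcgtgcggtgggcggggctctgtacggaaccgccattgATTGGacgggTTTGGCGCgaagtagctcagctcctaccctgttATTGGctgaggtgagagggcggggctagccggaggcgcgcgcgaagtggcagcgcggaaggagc
Rrm2: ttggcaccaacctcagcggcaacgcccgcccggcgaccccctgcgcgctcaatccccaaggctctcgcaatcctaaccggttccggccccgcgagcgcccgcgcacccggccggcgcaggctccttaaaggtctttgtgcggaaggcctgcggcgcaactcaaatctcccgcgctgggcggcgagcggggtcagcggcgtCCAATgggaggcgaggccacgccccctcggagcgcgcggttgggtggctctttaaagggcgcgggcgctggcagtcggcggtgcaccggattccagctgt
Cdk1: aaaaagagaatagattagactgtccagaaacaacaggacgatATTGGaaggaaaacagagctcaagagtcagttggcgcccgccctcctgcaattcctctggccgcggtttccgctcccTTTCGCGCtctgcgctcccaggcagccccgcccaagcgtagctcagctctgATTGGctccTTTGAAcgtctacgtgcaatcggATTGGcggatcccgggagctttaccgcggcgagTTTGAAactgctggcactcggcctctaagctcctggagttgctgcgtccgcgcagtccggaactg
Plk1: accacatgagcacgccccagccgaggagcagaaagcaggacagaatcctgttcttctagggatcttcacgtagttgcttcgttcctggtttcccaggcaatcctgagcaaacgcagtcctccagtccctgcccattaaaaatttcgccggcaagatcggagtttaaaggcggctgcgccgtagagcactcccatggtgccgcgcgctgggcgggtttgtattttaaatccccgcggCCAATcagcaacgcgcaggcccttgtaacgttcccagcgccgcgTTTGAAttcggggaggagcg

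Counting from RefSeq's transcription start, the E2F letters of Cdc6 lay at -138 to -131 and those of Cdt1 at 33 to 40, inside the transcribed part. GENCODE gives other starts for some of these genes. Its Cdc6 gene begins at 98907801, before the window shown, so there the E2F letters of Cdc6 also lie inside the gene. Its Mcm6 gene begins at 128359664 on the minus strand, downstream of RefSeq's start. Mcm6 held 3 E2F matches, of which those at -110 to -103 and -106 to -99 overlapped. Cdk1 held an E2F match at -131 to -124 and CHR letters at -71 to -66 and -15 to -10. GENCODE's Cdk1 gene begins at 69352938 on the minus strand, upstream of RefSeq's start. The Cdk1 CHR letters at -15 to -10 therefore lie inside that gene. Plk1 held CHR letters at 31 to 36, and Rrm2 held a CCAAT box only. A window was at hand for 31 of the 39 genes. The E2F letters were present in 6 of 8 licensing and replication genes, 1 of 9 mitotic regulators, 0 of 6 chromosome and spindle genes and 2.6% of all 27025 genes in the promoter table. The CHR letters were present in 6 of 9 mitotic regulators, 5 of 6 chromosome and spindle genes, 1 of 8 licensing and replication genes and 20.2% of all genes, and the CCAAT box in 24 of the 31 genes against 41.1% of all genes. A match describes letters in a window and is not a mapped site.

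Markers of macrophages were present in all 12 libraries, and some of them differed between groups. Levels are in FPKM, which divides the fragments of a gene by its transcript length and the size of the library. The summed level of 9 macrophage genes was 14530 to 24170 FPKM, and Csf1r, the M-CSF receptor, had 512 to 644 FPKM with Tm plus LPS, 526 to 559 with Tm, 475 to 614 with LPS and 490 to 509 in control cells. Against control cells, 4 of the 9 were lower and 1 higher (Cd14) with Tm plus LPS, 4 lower and 1 higher (Adgre1) with Tm, and 2 lower and 1 higher (Cd14) with LPS, by the test described below. Of all genes tested, 20.2% were lower and 20.7% higher with Tm plus LPS, 16.6% and 17.9% with Tm, and 7.86% and 10.5% with LPS. The 1 higher marker made 11.1% each time, near or under those shares. Both Cd68 and Fcgr1 fell with Tm (by 0.58 ± 0.08 and 1.15 ± 0.20 on the log2 scale) and with Tm plus LPS. They did not pass as lower with LPS alone, while Mertk fell with LPS and with Tm plus LPS. The 7 progenitor markers, from cells that divide faster than macrophages, summed to 2.80 to 4.38 FPKM with Tm plus LPS, 2.21 to 3.38 with Tm, 4.23 to 7.86 with LPS and 4.67 to 8.32 in control cells. Cd34 was the one among them that passed the filter on low values. Against control cells Cd34 was lower with Tm (-0.96 ± 0.27) and with Tm plus LPS (-1.09 ± 0.27). It did not pass with LPS (-0.26 ± 0.27), and it was lower with Tm plus LPS than with LPS (-0.83 ± 0.27). Flt3 was at 0 in every Tm plus LPS and control library. Neutrophil markers summed to 32.5 to 47.7 FPKM with Tm plus LPS, 27.9 to 47.8 with Tm, 217 to 345 with LPS and 103 to 145 in control cells. Stromal markers summed to 16.5 to 44.5 FPKM with Tm plus LPS, 19.9 to 38.3 with Tm, 8.17 to 14.2 with LPS and 7.98 to 10.1 in control cells, with Thy1 at 0 in every Tm plus LPS, Tm and control library. In both groups with Tm the neutrophil sum was lower, and the stromal sum higher, than in every library without it, and the median progenitor sum was 3.14 FPKM with Tm plus LPS, 3.27 with Tm, 7.71 with LPS and 7.86 in control cells. The part of these cells, and of the macrophage markers that changed, in the results below was not tested. Dendritic cell markers summed to at most 3.72 FPKM in any library, and erythroid, T and NK, B and mast cell markers to at most 1.005 FPKM. Fewer dividing cells and less RNA per dividing cell cannot be told apart in bulk RNA.

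All 39 genes passed the filter, which kept 10311 genes with at least 1 FPKM in at least 3 libraries. Their summed level was 732 to 939 FPKM in Tm plus LPS libraries, 1007 to 1050 in Tm libraries, 1370 to 1590 in LPS libraries and 1602 to 1861 in control libraries, with no overlap between any 2 groups. The Tm plus LPS group had the lowest mean of the 4 groups for 32 of the 39 genes, the Tm group for 4 and the LPS group for 3. The control group had the highest mean for 30. Fold changes below are differences of log2(FPKM + 1) with their standard errors, and a gene passed where limma's p, adjusted by Benjamini and Hochberg's method over all 10311 genes, was under 0.05.

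**Figure D1:**
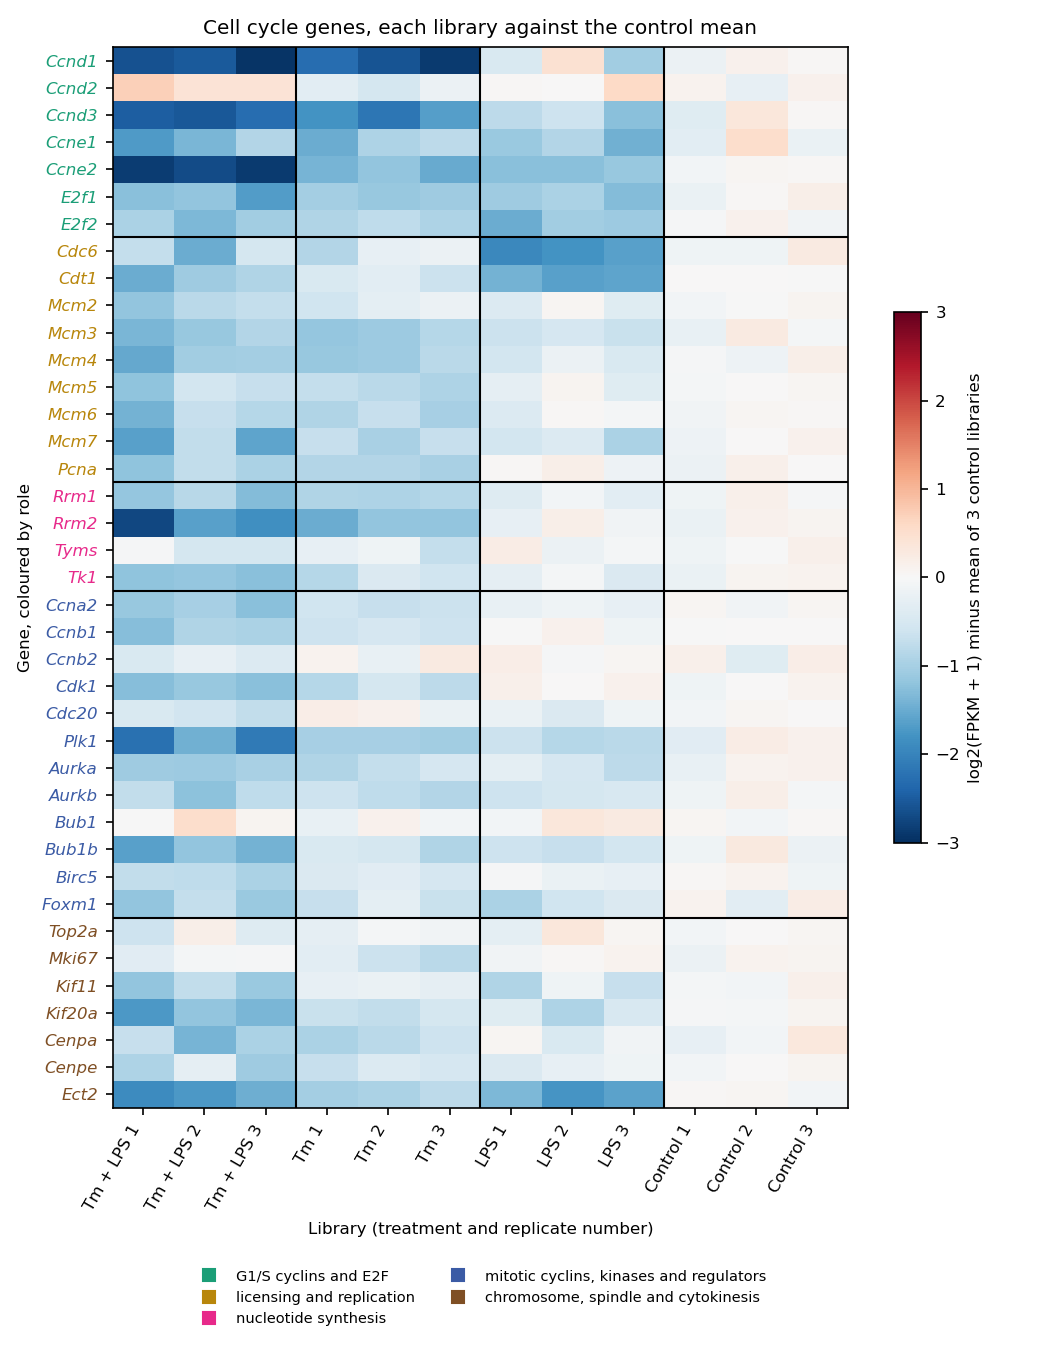
Difference of log2(FPKM + 1) from the control mean for the 39 genes (down the page, grouped by role) in each of the 12 libraries (across, by group). The Tm plus LPS libraries carry the lowest values for most genes, their group having the lowest mean for 32 of the 39.

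With Tm plus LPS against control cells, 33 of the 39 genes were lower and 0 higher, against 20.2% of all genes lower and 20.7% higher, and the median change was -1.05 (0.00 over all genes). With Tm alone against control cells, 28 were lower and 0 higher (71.8% lower, against 16.6% of all genes lower and 17.9% higher), with a median of -0.70 (0.03 over all genes). With LPS alone against control cells, 15 were lower and 0 higher (38.5% lower, against 7.86% of all genes lower and 10.5% higher), with a median of -0.27 (0.00 over all genes). The 3 comparisons share the control libraries. The 3 Tm libraries lay below all 3 control libraries for 32 of the 39 genes (23.0% of all genes did), and the 3 LPS libraries for 21 (15.9% of all genes). By role, 6 of 7 G1/S genes, 7 of 9 licensing and replication genes, 3 of 4 nucleotide synthesis genes, 8 of 12 mitotic regulators and 4 of 7 chromosome and spindle genes were lower with Tm alone. With LPS alone these counts were 5 G1/S genes, 4 licensing and replication genes, 0 nucleotide synthesis genes, 4 mitotic regulators and 2 chromosome and spindle genes.

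**Figure D2:**
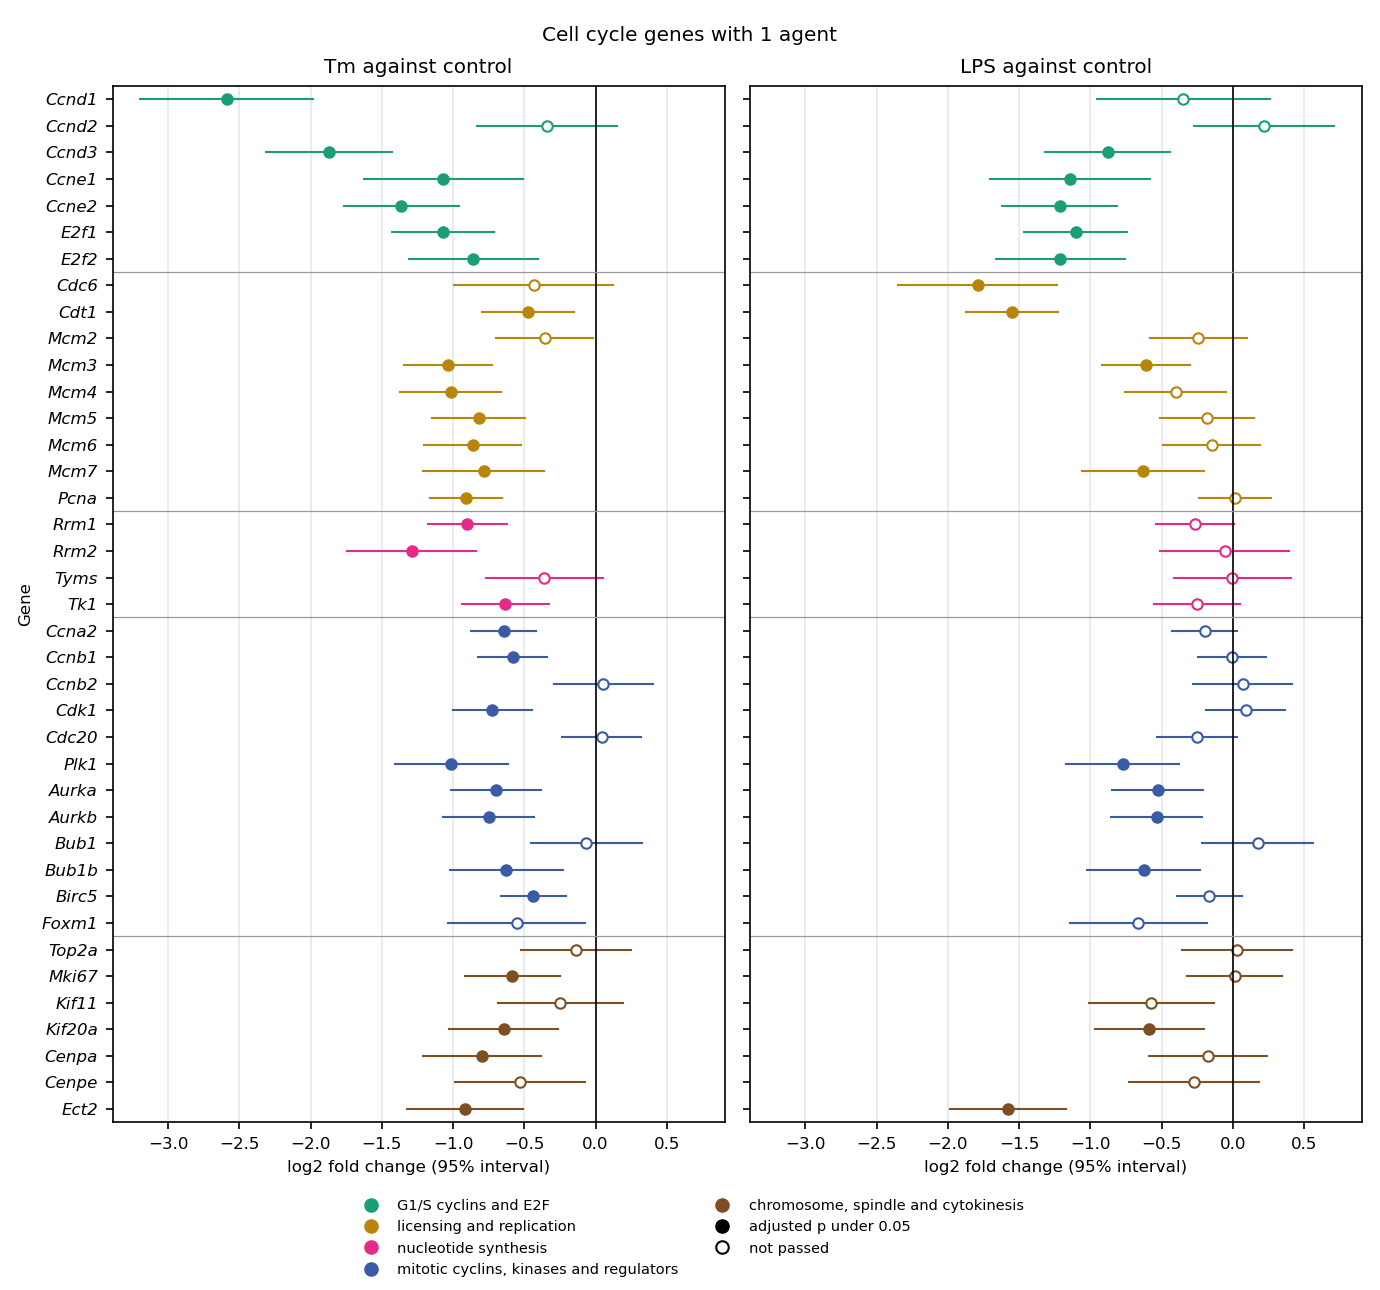
Log2 fold change with its 95% interval (x axis, log2 scale) for each gene (y axis, grouped by role) with Tm against control (left) and LPS against control (right); filled points passed at an adjusted p under 0.05. The 28 filled points for Tm and the 15 for LPS all lie below 0, with Ccnd1 the lowest for Tm (-2.59) and Cdc6 the lowest for LPS (-1.79).

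Cells given both agents were also compared with cells given either alone. With Tm plus LPS against LPS, 22 genes were lower and 1 higher, against 15.1% of all genes lower and 13.8% higher, and the median was -0.64 (0.00 over all genes). With Tm plus LPS against Tm, 15 were lower and 1 higher, against 7.00% lower and 8.69% higher, with a median of -0.38 (-0.01 over all genes). Of all genes called in that comparison 55.4% were higher with Tm plus LPS, against 44.9% after quantile normalization. The second count rested in part on Tm replicate 2, without which 9 genes passed in place of 16. The Tm plus LPS libraries lay below all LPS libraries for 24 genes (19.6% of all genes) and below all Tm libraries for 21 (15.4% of all genes). Of the 15 genes lower than with Tm alone, 7 were mitotic regulators and 3 chromosome and spindle genes.

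**Figure D3:**
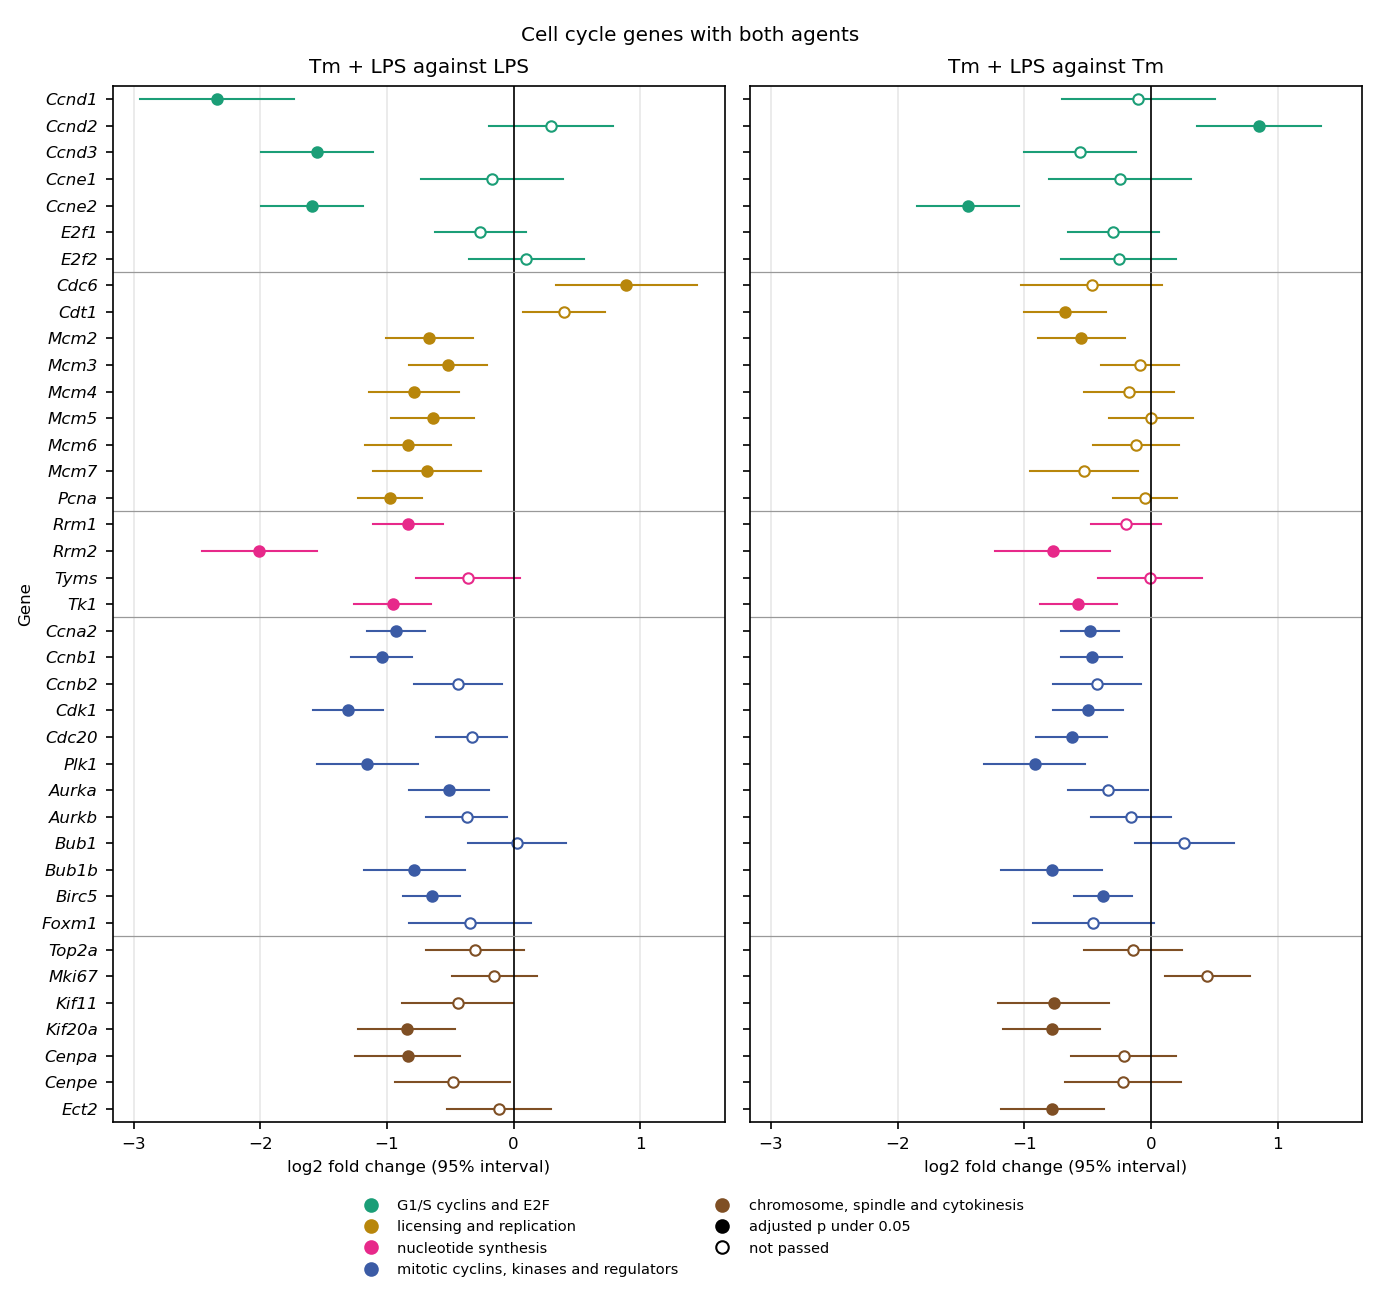
Log2 fold change with its 95% interval (x axis, log2 scale) for each gene (y axis, grouped by role) with Tm plus LPS against LPS (left) and against Tm (right); filled points passed at an adjusted p under 0.05. Ccnd1 (-2.34) and Rrm2 (-2.01) are the lowest on the left and Ccne2 (-1.45) on the right, with Cdc6 (0.89) filled above 0 on the left and Ccnd2 (0.85) on the right.

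Among the G1/S genes the D-type cyclins, which couple mitogen signals to the cycle, had unlike patterns. Ccnd1 (cyclin D1, chr7:144929931-144939925, mm10, minus strand) had 3.64, 3.95 and 2.66 FPKM with Tm plus LPS, 4.77, 3.68 and 2.83 with Tm, 19.6, 37.8 and 12.7 with LPS and 23.8, 30.1 and 28.1 in control cells. Both groups with Tm lay below every library without it, while the LPS libraries spread on both sides of the control libraries. Ccnd1 fell by 2.59 ± 0.29 on the log2 scale with Tm (adjusted p = 3.64e-06) and by 2.34 ± 0.29 with Tm plus LPS against LPS (adjusted p = 1.47e-05). The change with LPS alone was -0.35 ± 0.29 (adjusted p = 0.479), and it passed without LPS replicate 2, the library at 37.8 FPKM (adjusted p = 0.0493). Tm plus LPS against Tm differed by -0.10 ± 0.29 (95% interval -0.71 to 0.51).

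Ccnd3 (cyclin D3, chr17:47505051-47599691, plus strand) had 6.13, 5.81 and 7.16 FPKM with Tm plus LPS, 10.5, 7.78 and 11.6 with Tm, 22.1, 24.9 and 15.7 with LPS and 29.5, 49.4 and 39.3 in control cells. The 4 groups did not overlap. It fell by 1.87 ± 0.21 with Tm (adjusted p = 3.82e-06), by 0.88 ± 0.21 with LPS (adjusted p = 0.00625) and by 1.55 ± 0.21 with Tm plus LPS against LPS (adjusted p = 3.56e-05). Ccnd2 (cyclin D2) had 3.76, 2.90 and 2.91 FPKM with Tm plus LPS, 1.35, 1.03 and 1.58 with Tm, 1.99, 1.97 and 3.43 with LPS and 2.16, 1.48 and 2.19 in control cells. It was higher with Tm plus LPS than with Tm (0.85 ± 0.23, adjusted p = 0.0187) and did not pass against LPS (0.29 ± 0.23, adjusted p = 0.376). The Ccnd2 call was lost without Tm replicate 2 (adjusted p = 0.0846) or Tm plus LPS replicate 1 (adjusted p = 0.0686).

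Ccne2 (cyclin E2, the partner of CDK2 at the start of S phase, chr4:11191351-11204779, plus strand) was lower with each agent and lowest with both. It had 0.619, 0.806 and 0.590 FPKM with Tm plus LPS, 3.47, 4.10 and 3.11 with Tm, 3.90, 3.89 and 4.32 with LPS and 10.0, 11.1 and 11.0 in control cells. The Tm and LPS libraries overlapped, and every other pair of groups was apart. Ccne2 fell by 1.22 ± 0.19 with LPS (adjusted p = 0.000169), by 1.36 ± 0.19 with Tm (adjusted p = 4.01e-05), by 1.59 ± 0.19 with Tm plus LPS against LPS (adjusted p = 1.15e-05) and by 1.45 ± 0.19 with Tm plus LPS against Tm (adjusted p = 4.03e-05). Of the 39 genes it had the largest difference from control cells with both agents, -2.81 ± 0.19.

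E2f1, Ccne1 and E2f2 were lower with each agent, and the second agent added no change that passed. E2f1, the activator of replication genes, had 10.2, 10.7 and 7.40 FPKM with Tm plus LPS, 12.2, 11.2 and 11.8 with Tm, 11.8, 12.9 and 9.82 with LPS and 22.3, 26.3 and 29.0 in control cells. All 9 treated libraries lay below the 3 control libraries. E2f1 fell by 1.07 ± 0.17 with Tm (adjusted p = 0.000134) and by 1.10 ± 0.17 with LPS (adjusted p = 0.000138), and Tm plus LPS against LPS gave -0.26 ± 0.17 (95% interval -0.63 to 0.10). E2f2 fell by 0.86 ± 0.21 with Tm and 1.21 ± 0.21 with LPS, and Ccne1 (cyclin E1) fell by 1.07 ± 0.26 with Tm and 1.14 ± 0.26 with LPS. Their differences between Tm plus LPS and LPS were 0.10 ± 0.21 for E2f2 and -0.17 ± 0.26 for Ccne1, with adjusted p of 0.775 and 0.683.

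**Figure D4:**
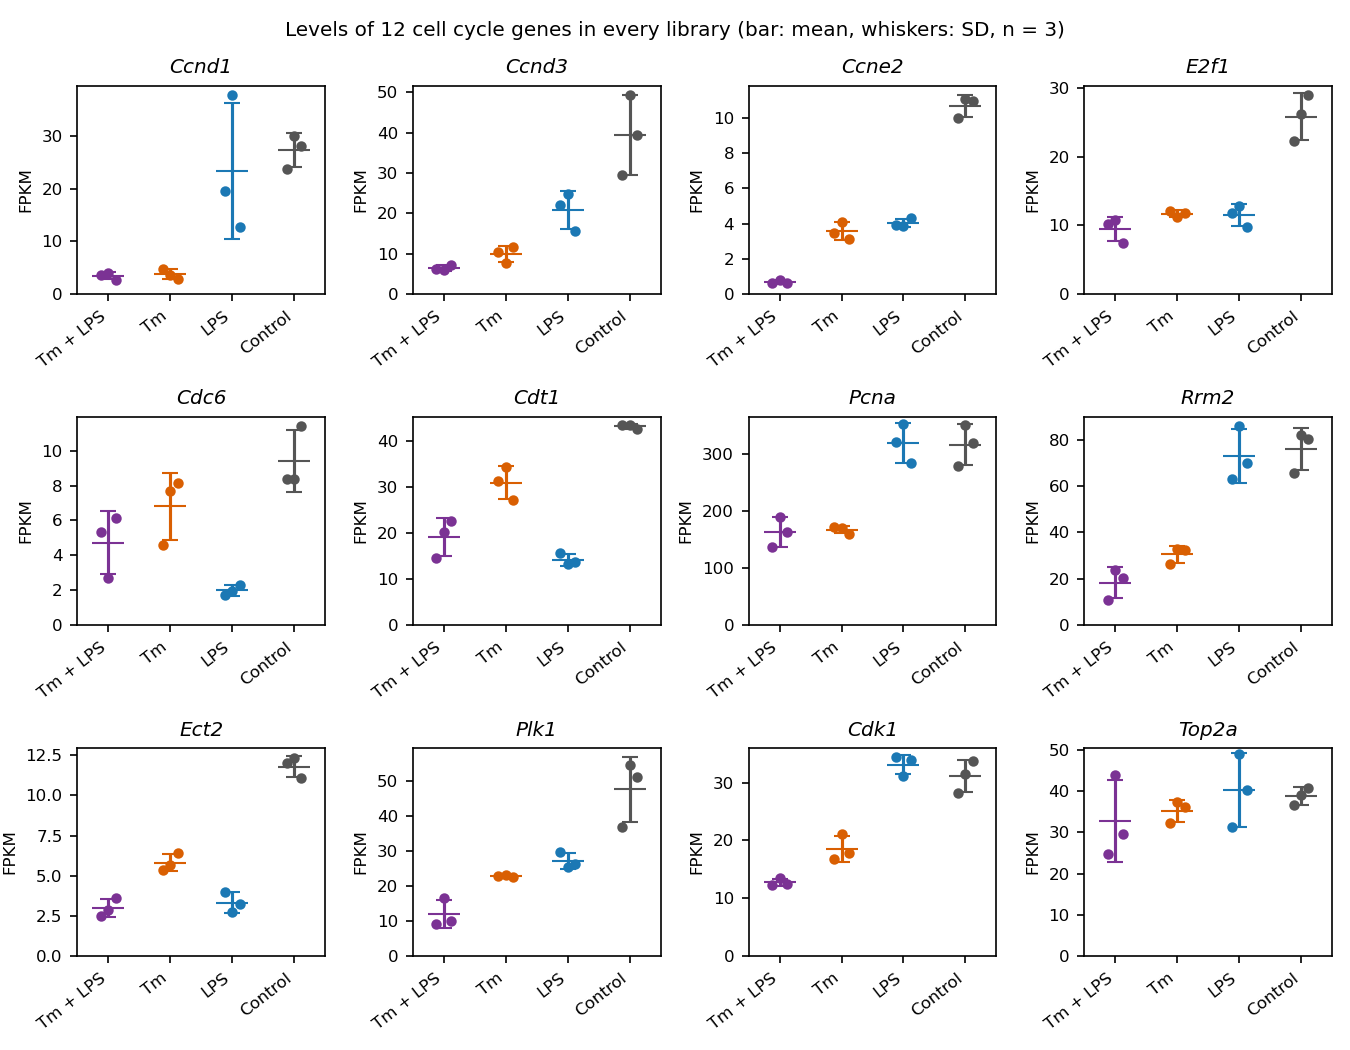
FPKM in each library (y axis, linear scale from 0; 1 point per library, bar at the group mean, whiskers 1 SD, n = 3) for 12 of the genes in the Tm plus LPS, Tm, LPS and control groups (x axis). Ccnd1 is low in both groups with Tm, Ccne2 is lowest with both agents (0.590 to 0.806 FPKM), and Cdc6 is lowest with LPS alone (1.69 to 2.32 FPKM).

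The licensing factors and the helicase they load did not move alike. Cdc6, which recruits the helicase to origins, had 5.33, 2.70 and 6.16 FPKM with Tm plus LPS, 4.59, 7.71 and 8.12 with Tm, 1.69, 1.96 and 2.32 with LPS and 8.36, 8.40 and 11.4 in control cells. The LPS libraries were below all others. Cdc6 fell by 1.79 ± 0.26 with LPS (adjusted p = 8.76e-05) and did not pass with Tm (-0.43 ± 0.26, adjusted p = 0.222). It was higher with Tm than with LPS (1.36 ± 0.26, adjusted p = 0.000648) and higher with Tm plus LPS than with LPS (0.89 ± 0.26, adjusted p = 0.0181). That last call was lost without LPS replicate 1 (adjusted p = 0.0636), Tm plus LPS replicate 1 (0.0624) or Tm plus LPS replicate 3 (0.0825), and the call against control cells (-0.90 ± 0.26, adjusted p = 0.0114) without control replicate 3 (0.0546) or Tm plus LPS replicate 2 (0.0648).

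Cdt1, the partner of CDC6 in loading, had 14.6, 20.1 and 22.6 FPKM with Tm plus LPS, 31.2, 34.2 and 27.1 with Tm, 15.5, 13.2 and 13.6 with LPS and 43.3, 43.4 and 42.5 in control cells. The Tm libraries lay between the control libraries and those with LPS. Cdt1 fell by 1.55 ± 0.15 with LPS (adjusted p = 8.17e-07), by 0.48 ± 0.15 with Tm (adjusted p = 0.0231) and by 0.68 ± 0.15 with Tm plus LPS against Tm (adjusted p = 0.00567). The Tm call was lost without Tm replicate 3 (adjusted p = 0.105) or any of control replicates 1 to 3 (0.0574, 0.0571 and 0.0521). Against LPS alone, Tm plus LPS gave 0.39 ± 0.15 (adjusted p = 0.063), which passed without Tm plus LPS replicate 1 (adjusted p = 0.00818).

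The 6 helicase genes Mcm2 to Mcm7 were lower with Tm plus LPS than with LPS (differences of -0.51 to -0.83), and 5 of the 6 were lower with Tm than in control cells (-0.79 to -1.04). The exception was Mcm2, at -0.36 ± 0.16 (adjusted p = 0.0982). With LPS alone Mcm3 (-0.61 ± 0.15, adjusted p = 0.00647) and Mcm7 (-0.63 ± 0.20, adjusted p = 0.0377) passed, and the other 4 did not, although Mcm4 did after quantile normalization (adjusted p = 0.0493). Mcm6 had 58.0, 96.3 and 85.5 FPKM with Tm plus LPS, 82.7, 96.4 and 77.3 with Tm, 116, 160 and 149 with LPS and 144, 163 and 160 in control cells. The libraries with Tm lay below all those without it, and the LPS libraries overlapped the control libraries. Mcm6 fell by 0.86 ± 0.16 with Tm (adjusted p = 0.000562), while LPS gave -0.15 ± 0.16 (95% interval -0.49 to 0.20).

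The Mcm7 call with LPS was lost without control replicate 2 (adjusted p = 0.0908), control replicate 3 (0.126), LPS replicate 1 (0.0639) or LPS replicate 3 (0.179). Its call with Tm plus LPS against LPS was lost without LPS replicate 1 (0.0606), LPS replicate 2 (0.0809), Tm plus LPS replicate 1 (0.0779) or Tm plus LPS replicate 3 (0.081). Both Mcm7 calls were also lost without filtering (0.117 and 0.0638), and the LPS call with no trend in the fit (0.083). The Mcm3 call with Tm plus LPS against LPS was lost without LPS replicate 2 (0.0567) or Tm plus LPS replicate 1 (0.0638). Against Tm alone, Mcm2 was lower with Tm plus LPS (-0.55 ± 0.16, adjusted p = 0.0287), a call lost without Tm replicate 2 (0.0974), Tm replicate 3 (0.127) or Tm plus LPS replicate 1 (0.116), and the other 5 helicase genes did not pass, with Mcm7 passing without Tm plus LPS replicate 2 (0.00259).

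Pcna, the sliding clamp of the DNA polymerases, was the most abundant of the 39 genes. It had 137, 189 and 163 FPKM with Tm plus LPS, 172, 170 and 160 with Tm, 322, 353 and 284 with LPS and 278, 351 and 319 in control cells. The 6 libraries with Tm lay below the 6 without it. Pcna fell by 0.91 ± 0.12 with Tm (adjusted p = 2.17e-05) and by 0.98 ± 0.12 with Tm plus LPS against LPS (adjusted p = 1.43e-05). LPS alone gave 0.02 ± 0.12 (95% interval -0.24 to 0.28), and adding LPS to Tm gave -0.05 ± 0.12.

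Of the 4 genes of nucleotide synthesis 3 were lower with Tm, and none passed with LPS alone, although Rrm1 did after quantile normalization (-0.43, adjusted p = 0.0299). Rrm2, the S-phase subunit of ribonucleotide reductase, had 10.6, 23.6 and 20.3 FPKM with Tm plus LPS, 26.1, 32.6 and 32.5 with Tm, 62.9, 86.0 and 70.0 with LPS and 65.4, 82.0 and 80.0 in control cells. The LPS and control libraries overlapped, and the other groups were apart. Rrm2 fell by 1.29 ± 0.21 with Tm (adjusted p = 0.000207) and by 2.01 ± 0.21 with Tm plus LPS against LPS (adjusted p = 3.59e-06), while LPS alone gave -0.06 ± 0.21 (adjusted p = 0.901). Tm plus LPS was also lower than Tm (-0.78 ± 0.21, adjusted p = 0.0203), a call lost without Tm replicate 2 (0.0769), Tm replicate 3 (0.0699) or Tm plus LPS replicate 1 (0.0686).

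Rrm1, the large subunit, fell by 0.90 ± 0.13 with Tm (adjusted p = 5.82e-05) and by 0.83 ± 0.13 with Tm plus LPS against LPS (adjusted p = 0.000165). Tk1, thymidine kinase, had 16.4, 17.0 and 16.0 FPKM with Tm plus LPS, 21.2, 28.7 and 25.7 with Tm, 32.5, 37.9 and 28.7 with LPS and 34.3, 41.6 and 42.5 in control cells. It fell by 0.63 ± 0.14 with Tm (adjusted p = 0.00271), by 0.95 ± 0.14 with Tm plus LPS against LPS (adjusted p = 0.000111) and by 0.57 ± 0.14 with Tm plus LPS against Tm (adjusted p = 0.0112), the last call being lost without Tm replicate 2 (0.07). Tyms, thymidylate synthase, passed in no comparison, with -0.36 ± 0.19 with Tm and a difference under 0.01 in size with LPS.

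Among the mitotic regulators, Cdk1 and the cyclins A2 and B1 did not pass with LPS alone and were lower wherever Tm was given. Cdk1, the kinase that drives mitosis, had 12.3, 13.5 and 12.5 FPKM with Tm plus LPS, 16.7, 21.1 and 17.8 with Tm, 34.4, 31.2 and 33.8 with LPS and 28.2, 31.6 and 33.7 in control cells. The Tm plus LPS libraries lay below the Tm libraries, and those below all libraries without Tm. Cdk1 fell by 0.72 ± 0.13 with Tm (adjusted p = 0.000426), by 1.31 ± 0.13 with Tm plus LPS against LPS (adjusted p = 1.57e-06) and by 0.50 ± 0.13 with Tm plus LPS against Tm (adjusted p = 0.015), the last call being lost without Tm replicate 2 (0.0894). LPS alone gave 0.09 ± 0.13 (95% interval -0.19 to 0.38).

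Ccnb1 (cyclin B1, the partner of CDK1) had 31.7, 41.4 and 40.0 FPKM with Tm plus LPS, 51.2, 55.1 and 50.5 with Tm, 77.7, 85.5 and 72.1 with LPS and 77.4, 79.0 and 79.6 in control cells. It fell by 0.58 ± 0.11 with Tm (adjusted p = 0.000819), by 1.04 ± 0.11 with Tm plus LPS against LPS (adjusted p = 4.16e-06) and by 0.47 ± 0.11 with Tm plus LPS against Tm (adjusted p = 0.00916). Ccna2 (cyclin A2) fell by 0.64 ± 0.11 with Tm (adjusted p = 0.000217), by 0.93 ± 0.11 with Tm plus LPS against LPS (adjusted p = 7.75e-06) and by 0.48 ± 0.11 with Tm plus LPS against Tm (adjusted p = 0.00517). With LPS alone Ccnb1 gave -0.01 ± 0.11 and Ccna2 -0.20 ± 0.11, and neither passed, although Ccna2 did after quantile normalization (-0.35, adjusted p = 0.0346). Birc5 (survivin, of the chromosomal passenger complex) fell by 0.44 ± 0.11 with Tm (adjusted p = 0.00494) and by 0.65 ± 0.11 with Tm plus LPS against LPS (adjusted p = 0.00028).

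Plk1, Bub1b, Aurka and Aurkb, kinases or kinase-like proteins of spindle assembly and its checkpoint, were lower with either agent. Plk1 had 9.22, 16.7 and 10.1 FPKM with Tm plus LPS, 23.0, 23.0 and 22.5 with Tm, 29.6, 25.4 and 26.4 with LPS and 37.0, 54.7 and 51.4 in control cells. The 4 groups did not overlap. It fell by 1.01 ± 0.19 with Tm (adjusted p = 0.00055), by 0.77 ± 0.19 with LPS (adjusted p = 0.00739), by 1.16 ± 0.19 with Tm plus LPS against LPS (adjusted p = 0.00023) and by 0.92 ± 0.19 with Tm plus LPS against Tm (adjusted p = 0.00267). Bub1b was lower with Tm plus LPS than with LPS (-0.78 ± 0.19, adjusted p = 0.00505) and than with Tm (-0.78 ± 0.19, adjusted p = 0.00854).

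The LPS calls of the other 3 were each lost without some libraries. Aurka (-0.53 ± 0.15, adjusted p = 0.0196) was lost without control replicate 2 (0.0737), control replicate 3 (0.0839) or LPS replicate 3 (0.108), and Aurkb (-0.54 ± 0.15, adjusted p = 0.0188) without control replicate 2 (0.0858) or LPS replicate 1 (0.0677). Bub1b with LPS (-0.62 ± 0.19, adjusted p = 0.0273) was lost without control replicate 2 (0.126), LPS replicate 1 (0.0689), LPS replicate 2 (0.0878) or LPS replicate 3 (0.0506), and with Tm (-0.62 ± 0.19, adjusted p = 0.0164) without control replicate 2 (0.0811) or Tm replicate 3 (0.0894). With Tm, Aurka and Aurkb fell by 0.70 ± 0.15 (adjusted p = 0.00169) and 0.75 ± 0.15 (adjusted p = 0.00105).

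Cdc20, the activator of the anaphase-promoting complex, had 30.2, 27.6 and 24.7 FPKM with Tm plus LPS, 47.6, 45.7 and 36.3 with Tm, 36.2, 30.7 and 37.8 with LPS and 39.3, 43.6 and 42.1 in control cells. It fell by 0.63 ± 0.13 with Tm plus LPS against Tm (adjusted p = 0.00323) and by 0.58 ± 0.13 against control cells (adjusted p = 0.00187), while Tm alone gave 0.04 ± 0.13 and LPS alone -0.25 ± 0.13. Against LPS it passed without LPS replicate 2 (0.0477). Foxm1, the transcription factor of mitotic genes, passed with Tm plus LPS against control cells (-1.01 ± 0.23, adjusted p = 0.00194). Without control replicate 2 it also passed with Tm (adjusted p = 0.0366) and with LPS (0.0285), and without Tm plus LPS replicate 2 with LPS (0.0465). The cyclin gene Ccnb2 and the checkpoint kinase gene Bub1 passed in no comparison over all libraries. Without control replicate 2, Ccnb2 passed with Tm plus LPS against control (adjusted p = 0.012), against LPS (0.0271) and against Tm (0.0498), after quantile normalization against control (0.0343), and without Tm replicate 2 against LPS (0.0485). Bub1 had 9.66, 14.3 and 10.4 FPKM with Tm plus LPS, 8.14, 10.7 and 9.03 with Tm, 9.12, 12.5 and 11.9 with LPS and 10.2, 9.10 and 9.89 in control cells, with all groups overlapping.

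Of the chromosome, spindle and cytokinesis genes, Ect2 had the largest changes from control cells. Ect2, the exchange factor that activates RhoA for the cleavage furrow (chr3:27097222-27153878, minus strand), had 2.47, 2.86 and 3.60 FPKM with Tm plus LPS, 5.36, 5.63 and 6.39 with Tm, 4.00, 2.73 and 3.22 with LPS and 12.0, 12.3 and 11.1 in control cells. The Tm libraries lay between the control libraries and both groups with LPS, which overlapped. Ect2 fell by 0.92 ± 0.19 with Tm (adjusted p = 0.00154), by 1.58 ± 0.19 with LPS (adjusted p = 1.12e-05) and by 0.78 ± 0.19 with Tm plus LPS against Tm (adjusted p = 0.0108), the last call being lost without Tm replicate 3 (0.054). Against LPS alone, Tm plus LPS gave -0.12 ± 0.19 (adjusted p = 0.698).

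Kif20a, a kinesin of the central spindle, had 5.18, 7.91 and 6.83 FPKM with Tm plus LPS, 11.9, 11.2 and 13 with Tm, 14.9, 9.78 and 13.6 with LPS and 18.9, 18.7 and 20.4 in control cells. Tm plus LPS lay below every other group. With both agents it fell by 0.84 ± 0.18 against LPS (adjusted p = 0.00229) and by 0.79 ± 0.18 against Tm (adjusted p = 0.00665). Against control cells it fell by 0.64 ± 0.18 with Tm (adjusted p = 0.0112) and by 0.59 ± 0.18 with LPS (adjusted p = 0.0317), and the LPS call was lost without any of control replicates 1 to 3 (0.072, 0.059 and 0.1), LPS replicate 2 (0.164) or LPS replicate 3 (0.0521).

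Cenpa, the centromeric histone, fell by 0.80 ± 0.20 with Tm (adjusted p = 0.00484) and by 0.84 ± 0.20 with Tm plus LPS against LPS (adjusted p = 0.0043). Kif11, the kinesin that separates spindle poles, was lower with Tm plus LPS than with Tm (-0.77 ± 0.21, adjusted p = 0.0177), a call lost without Tm replicate 2 (0.0626), Tm plus LPS replicate 1 (0.0623) or Tm plus LPS replicate 3 (0.0545). The proliferation marker Mki67 had 15.4, 19 and 19.3 FPKM with Tm plus LPS, 15.7, 12.3 and 10.9 with Tm, 18.2, 20.2 and 21.4 with LPS and 17.4, 21.2 and 20.8 in control cells. It fell by 0.59 ± 0.16 with Tm alone (adjusted p = 0.00861, and 0.0503 without Tm replicate 3), and the difference between Tm plus LPS and control cells was -0.14 ± 0.16. Cenpe, a kinetochore kinesin, passed with Tm plus LPS against control cells (-0.75 ± 0.22, adjusted p = 0.0101), and Top2a, the topoisomerase of chromosome segregation, in no comparison over all libraries. Without Tm plus LPS replicate 2, Tm plus LPS against LPS passed for Cenpe (0.0167) and Top2a (0.0256), Tm plus LPS against control for Top2a (0.0244) and Tm against control for Cenpe (0.0342). Mki67 was higher with Tm plus LPS than with Tm when Tm replicate 1 (0.0313) or Tm plus LPS replicate 1 (0.0447) was left out, and Kif11 lower with LPS without LPS replicate 2 (0.0146).

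Set directly against LPS, Tm gave 15 lower and 3 higher genes of 39, against 19.6% of all genes lower and 17.5% higher, with a median of -0.24 (0.01 over all genes). The lower genes included Ccnd1 (-2.24 ± 0.29, adjusted p = 1.15e-05), Rrm2 (-1.23 ± 0.21, adjusted p = 0.000255), Ccnd3 (-0.99 ± 0.21, adjusted p = 0.00125), Pcna (-0.93 ± 0.12, adjusted p = 1.24e-05) and Cdk1 (-0.81 ± 0.13, adjusted p = 0.000119). The higher genes were Cdc6 (1.36 ± 0.26), Cdt1 (1.07 ± 0.15, adjusted p = 3.59e-05) and Ect2 (0.66 ± 0.19, adjusted p = 0.0128). The Ect2 call was lost without LPS replicate 2 (adjusted p = 0.059) or Tm replicate 3 (0.0546). Among the lower genes, the calls of Tk1, Mcm3 and Cenpa were lost without some libraries (up to 0.208 for Tk1 without Tm replicate 1) and in some other settings. Of 21 alternatives, Tk1 (adjusted p = 0.048 in the reported fit) passed in 8, Mcm3 in 13 and Cenpa in 16. Some genes that were lower with each agent did not pass in this comparison, such as E2f1 (0.03 ± 0.17), Ccne2 (-0.15 ± 0.19) and Aurka (-0.17 ± 0.15).

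**Figure D5:**
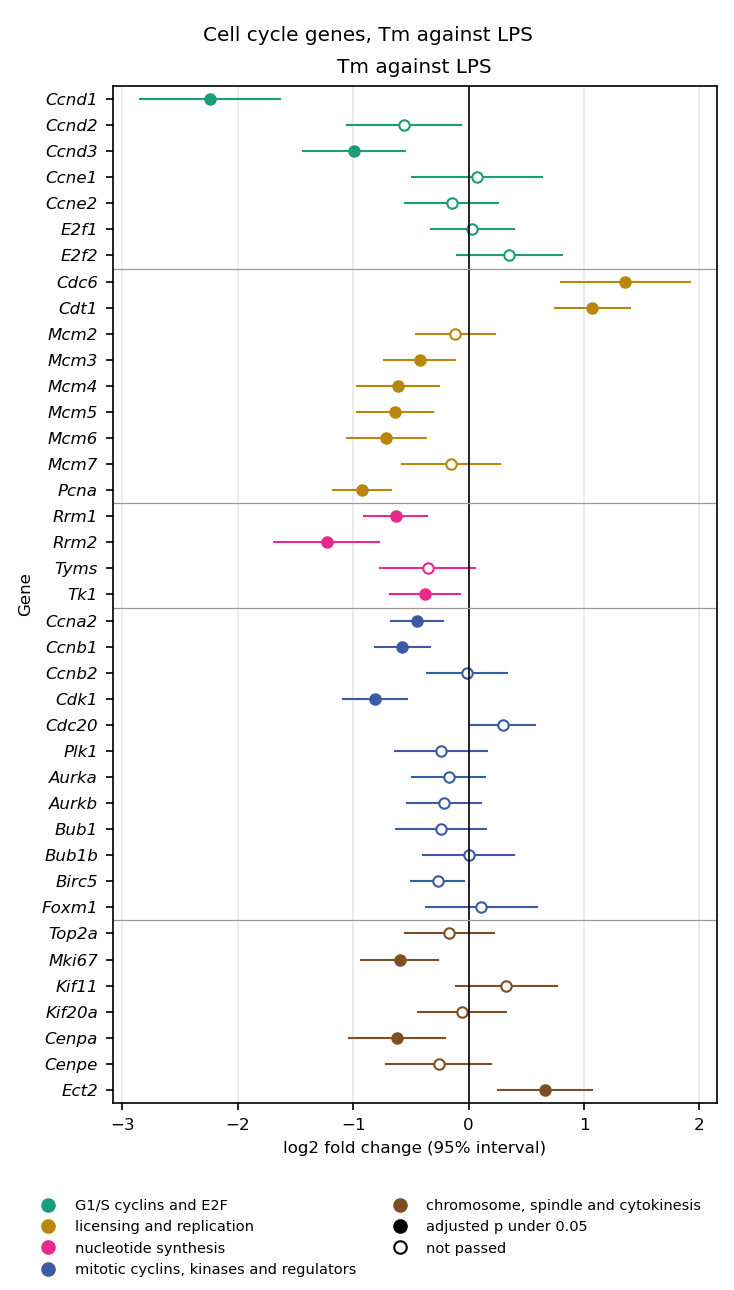
Log2 fold change with Tm against LPS with its 95% interval (x axis, log2 scale) for each gene (y axis, grouped and coloured by role); filled points passed at an adjusted p under 0.05. Ccnd1 (-2.24) and Rrm2 (-1.23) lie farthest below 0, and Cdc6 (1.36), Cdt1 (1.07) and Ect2 (0.66) are the 3 filled points above 0.

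The interaction asks whether the LPS effect with Tm differed from that without it. It was higher for 1 gene of 39, Cdt1, and lower for 0, against 1.41% of all genes higher and 1.96% lower. The LPS effect on Cdt1 was smaller with Tm, by 0.87 ± 0.22 (adjusted p = 0.034). The call was lost without any of control replicates 1 to 3 (0.0748, 0.072 and 0.0622), LPS replicates 2 or 3 (0.0844 and 0.0768), Tm replicates 1 or 3 (0.0574 and 0.104) or Tm plus LPS replicates 2 or 3 (0.0644 and 0.084). The other largest values were 1.32 ± 0.37 for Cdc6 (adjusted p = 0.0636, and 0.014 without Tm plus LPS replicate 2), 0.96 ± 0.30 for E2f2, 0.90 ± 0.37 for Ccne1, 0.81 ± 0.24 for E2f1 and 0.80 ± 0.27 for Ect2, and -0.72 ± 0.30 for Rrm2 and -0.59 ± 0.18 for Cdk1. These 7 did not pass, so a different LPS effect on them was not shown. E2f1 passed without Tm plus LPS replicate 3 (adjusted p = 0.0355), and E2f2 with no trend in the fit (0.03835).

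Genes with and without the promoter letters were found in each response. Of the 8 genes with E2F letters, 7 were lower with Tm and 5 with LPS, against 15 with Tm and 7 with LPS of the 23 genes without them. With Tm plus LPS against LPS 5 of the 8 were lower, against 12 of the 23, and with Tm plus LPS against Tm 2 of the 8, against 10 of the 23. Of the 13 genes with CHR letters, 8 were lower with Tm, 5 with LPS, 6 with Tm plus LPS against LPS and 7 with Tm plus LPS against Tm. Of the 18 without them, 14 were lower with Tm, 7 with LPS, 11 with Tm plus LPS against LPS and 5 with Tm plus LPS against Tm. The sequences of Cdc6 and Mcm6 shown above both hold E2F letters. Cdc6 passed as lower with LPS and did not pass with Tm. Its Tm libraries (4.59 to 8.12 FPKM) still lay below all control libraries (8.36 to 11.45 FPKM). Mcm6 passed as lower with Tm and did not pass with LPS, where its libraries overlapped the control libraries. A gene that did not pass may still have changed. These counts are descriptions with no test.

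Further genes of the same processes were counted in lists of their own. In what follows, group means are given ± SD (n = 3 each), and fold changes ± their standard error. The shares below are to be read against those over all genes, 16.6% lower and 17.9% higher with Tm, and 7.86% lower and 10.5% higher with LPS. For Tm plus LPS, 15.1% of all genes were lower and 13.8% higher against LPS, and 7.00% lower and 8.69% higher against Tm. Of 50 other replication genes, 20 were lower (40%) and 3 higher (6%) with Tm, and 15 were lower (30%) and 0 higher with LPS. The 3 higher genes, looked up after the values were seen, were Recql4 (1.20 ± 0.32, adjusted p = 0.00894, and 0.0525 without control replicate 2), Orc4 (0.54 ± 0.15, adjusted p = 0.00933) and Orc2 (0.64 ± 0.21, adjusted p = 0.0231, and 0.0667, 0.102 and 0.0958 without control replicates 1 or 3 or Tm replicate 3), a helicase and a pair of origin recognition subunits. Gmnn (geminin, the inhibitor of CDT1) averaged 17.0 ± 1.9 FPKM with Tm plus LPS, 28.5 ± 2.8 with Tm, 30.5 ± 4.4 with LPS and 75.6 ± 13 in control cells and fell by 1.37 ± 0.15 with Tm and 1.28 ± 0.15 with LPS. The replication fork genes Wdhd1 and Timeless fell by 1.48 ± 0.24 and 1.42 ± 0.20 with LPS. With Tm plus LPS against LPS, 16 of the 50 were lower (32%), led by Dut, the dUTP hydrolase (-1.39 ± 0.22). The 3 that were higher (Orc2, Orc4 and Timeless) made 6%, under the share of all genes. Of these 3, the Orc2 call against LPS was lost without LPS replicate 2 (adjusted p = 0.115), Tm plus LPS replicate 2 (0.0766) or Tm plus LPS replicate 3 (0.105), and Timeless stood at an adjusted p of 0.0491. Of 58 other mitotic genes tested, 21 were lower (36.2%) and 0 higher with Tm plus LPS against LPS. Against Tm, 12 were lower (20.7%) and 0 higher with Tm plus LPS. Against control cells, 19 were lower (32.8%) and 0 higher with Tm, and 13 lower (22.4%) and 3 higher (5.17%) with LPS (Cks2, Ckap2l and Pttg1). Ccnf, which encodes cyclin F, averaged 6.16 ± 2.6 FPKM with Tm plus LPS, 22.4 ± 1.0 with Tm, 13.4 ± 2.6 with LPS and 34.4 ± 4.6 in control cells and fell by 1.77 ± 0.21 with Tm plus LPS against Tm. Lmnb1 (lamin B1) fell by 1.91 ± 0.23 with Tm and 1.18 ± 0.23 with LPS.

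Of 22 other CDK and E2F network genes, 9 were lower (40.9%) and 1 higher with Tm (Ccnh, 0.79 ± 0.16), and 8 lower (36.4%) and 2 higher (9.09%, near the share of all genes) with LPS (Cdk6, 0.77 ± 0.18, and Fzr1, 0.51 ± 0.11). Wee1, the kinase that holds CDK1 inactive, averaged 4.12 ± 1.4 FPKM with Tm plus LPS, 17.8 ± 2.3 with Tm, 3.82 ± 0.21 with LPS and 15.8 ± 1.4 in control cells. It fell by 1.79 ± 0.20 with LPS (adjusted p = 2.88e-06) and by 1.90 ± 0.20 with Tm plus LPS against Tm (adjusted p = 2.36e-06). Skp2, which directs p27 to degradation, averaged 0.864 ± 0.45 FPKM with Tm plus LPS, 1.05 ± 0.059 with Tm, 1.26 ± 0.61 with LPS and 4.88 ± 1.5 in control cells and fell by 1.49 ± 0.27 with Tm and 1.39 ± 0.27 with LPS. Fbxo5, the inhibitor of the anaphase-promoting complex, fell by 1.91 ± 0.28 with Tm plus LPS against Tm.

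Of 14 CDK inhibitor, pocket protein and MuvB genes tested, 3 were higher (Cdkn2b, Lin52 and Lin37) and 3 lower (Cdkn1a, Cdkn2c and Cdkn3) with Tm, and 2 higher (Cdkn1a and Cdkn2b) and 0 lower with LPS. These are 21.4% each way with Tm and 14.3% higher with LPS, near the shares of all genes. The Tm calls of Cdkn2c and Cdkn3 were each lost without control replicate 3 (adjusted p = 0.15 and 0.0715) and without Tm replicate 2 (0.0733 and 0.0972), and that of Cdkn2c also without control replicate 1 (0.0655), Tm replicate 1 (0.0816) or Tm replicate 3 (0.0634). Cdkn1a (p21) averaged 624 ± 20 FPKM with Tm plus LPS, 178 ± 7.1 with Tm, 649 ± 54 with LPS and 233 ± 17 in control cells. It was higher with LPS by 1.47 ± 0.09 (adjusted p = 1.02e-09) and lower with Tm by 0.38 ± 0.09 (adjusted p = 0.00245, and 0.354 after quantile normalization). Cdkn2b (p15) averaged 5.21 ± 1.7 FPKM with Tm plus LPS, 1.88 ± 0.84 with Tm, 2.48 ± 1.4 with LPS and 0.121 ± 0.10 in control cells and was higher with Tm by 1.32 ± 0.32 and with LPS by 1.55 ± 0.32. Cdkn1b (p27) did not reach the filter.

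Of 19 p53 and growth arrest genes tested, 10 were higher (52.6%) and 4 lower (21.1%) with Tm, and 8 higher (42.1%) and 3 lower (15.8%) with LPS. With Tm plus LPS against control cells, 11 were higher (57.9%) and 6 lower (31.6%), against 20.7% and 20.2% of all genes. The list moved both ways, with changes of -2.51 to 4.80 with Tm and -1.71 to 2.46 with LPS. The genes named next are among those that rose. Gadd45a, an arrest gene induced by stress, averaged 53.8 ± 15 FPKM with Tm plus LPS, 158 ± 28 with Tm, 6.98 ± 1.1 with LPS and 4.83 ± 1.7 in control cells and was higher with Tm by 4.80 ± 0.23 (adjusted p = 1.53e-10). Btg2, an antiproliferative gene, was higher with LPS by 2.46 ± 0.33 (adjusted p = 2.72e-05). Trp53 was higher with LPS by 0.63 ± 0.12 and with Tm by 0.50 ± 0.12. Of 14 genes of M-CSF signalling and the MYC network, 2 were higher (14.3%, under the share of all genes) and 5 lower (35.7%) with Tm, and 3 higher (21.4%) and 6 lower (42.9%) with LPS. Dusp6, a target of ERK signalling, averaged 6.13 ± 0.72 FPKM with Tm plus LPS, 2.59 ± 0.32 with Tm, 3.90 ± 1.5 with LPS and 35.0 ± 4.6 in control cells.

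Myc, a growth regulator upstream of cyclin D and E2F genes, had 27.1, 26.3 and 28.5 FPKM with Tm plus LPS, 13.8, 16.7 and 13.7 with Tm, 18.1, 9.02 and 11.6 with LPS and 31.6, 38.5 and 37.6 in control cells. It fell by 1.23 ± 0.19 with Tm (adjusted p = 0.0001) and by 1.46 ± 0.19 with LPS (adjusted p = 2.25e-05), and was higher with Tm plus LPS than with LPS by 1.08 ± 0.19 (adjusted p = 0.000451). Csf1r passed in no comparison of the reported fit. After quantile normalization it was higher with Tm than in control cells (0.47, adjusted p = 0.00295) and than with LPS (0.54, adjusted p = 0.000955), and without Tm plus LPS replicate 1 it was higher with Tm plus LPS than in control cells (0.33, adjusted p = 0.0146). Csf1, which encodes M-CSF, was higher with Tm by 2.64 ± 0.17 and with LPS by 2.87 ± 0.17.

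Of the 39 genes, 9 share exon sequence with a gene on the opposite strand and Foxm1 overlaps another on its own strand. No source used here says whether the quantification used strand. Among the partners, Bysl (opposite Ccnd3) was lower with Tm by 0.86 ± 0.17, Elovl1 (opposite Cdc20) was lower with Tm by 0.76 ± 0.10 and Exosc9 (opposite Ccna2) was higher with Tm by 0.64 ± 0.15. Reads from such pairs could not be told apart if strand was not used.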

How the data were processed

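RNA-seq of 12 mouse macrophage libraries was used, 3 per group, grouped by the labels. The values are the authors' deposited FPKM, 1 for each symbol in each library. The tools were Cufflinks 2.2.1, SAMtools 0.1.19, TopHat2 2.0.13 and Bowtie2 2.2.3 on mm10, per the submitters' processing notes, which do not say how libraries were scaled to each other. Read depth is unknown, so precision is the spread between libraries, and FPKM does not show a group's total RNA per cell.

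The filter was at least 1 FPKM in 3 or more libraries. The fit used limma 3.58.1 (R 4.3.3; eBayes with trend) on log2(FPKM + 1), with each of the 4 groups given its own mean and 7 contrasts taken. Fold changes are on that scale, which understates the change of low genes. P-values are two-sided and Benjamini-Hochberg adjusted over all 10311 genes. The fit was tested on simulated data with independent normal noise for each gene. Such data cannot show the effect of counting error or of libraries that share a source.

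The 39 genes and the further lists were chosen with earlier results of these data known, so no list is independent evidence of its direction. Within a role, up to 3 passing genes with the largest changes, and the gene nearest to passing, were named in full; from each further list up to 4 passing genes with the largest changes were eligible, plus Cdkn1a, Cdkn1b, Myc, Csf1, Csf1r, Gadd45a and Trp53. Genes that moved against the trend of their list were named after their values were seen. Coordinates are from GENCODE M21 and promoters from RefSeq (GRCm38.p6); 31 of 39 genes matched. Tables and figures were made with Python 3.11.15, pandas 2.3.3 and matplotlib 3.10.9. The alternatives were a pseudocount of 0.1, no filter, a 5 FPKM filter, median-of-ratios and quantile scaling, a replicate block, the compared libraries alone, no trend, a robust fit and leaving out each library.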

Additional observations from a re-analysis of the deposited data

Results flagged for a closer look

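The interaction contrast in limma, with Benjamini-Hochberg adjustment, called 347 of all genes tested. Given here are those among the 39 genes and among the genes of the further lists that the naming rule covers (log2 difference of the LPS effect with Tm less that without, ± SE). Among the 39 genes Cdt1 was called, at 0.87 ± 0.22 (adjusted p = 0.034), in 8 of 20 settings (adjusted p of 0.00514 to 0.104). For Fen1, the flap endonuclease of the lagging strand, which averaged 30.6 FPKM with Tm plus LPS, 27.8 with Tm, 39.9 with LPS and 64.3 in control cells, the interaction was 0.79 ± 0.20 (adjusted p = 0.0357). It was lost without filtering (0.082) and without 10 of the 12 libraries in turn (0.0584 to 0.0985). Rpa2, a subunit of the single-strand binding protein of replication, averaged 15.5 FPKM with Tm plus LPS, 17.3 with Tm, 16.4 with LPS and 35.8 in control cells, with an interaction of 0.95 ± 0.22 (adjusted p = 0.0227). It was lost without control replicates 2 or 3 (0.0572 and 0.058) or LPS replicate 1 (0.0552).

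For Myc the interaction was 2.31 ± 0.27 (adjusted p = 6e-05) and for the ERK target Dusp6 it was 3.90 ± 0.31 (adjusted p = 1.1e-06). Etv5, a transcription factor of the ETS family, averaged 9.25 FPKM with Tm plus LPS, 5.32 with Tm, 17.5 with LPS and 48.8 in control cells, with an interaction of 2.17 ± 0.26 (adjusted p = 8.98e-05). Plk2, a polo-like kinase, averaged 183 FPKM with Tm plus LPS, 25.1 with Tm, 143 with LPS and 53.7 in control cells, with 1.43 ± 0.16 (adjusted p = 5.07e-05). Plk3 averaged 4.07 FPKM with Tm plus LPS, 1.46 with Tm, 4.86 with LPS and 9.11 in control cells, with 1.80 ± 0.39 (adjusted p = 0.0158, and 0.0691 without filtering). The interaction was negative for Mxd1, an antagonist of MYC, which averaged 20.6 FPKM with Tm plus LPS, 16.0 with Tm, 18.0 with LPS and 2.99 in control cells (-1.87 ± 0.30, adjusted p = 0.0012). It was also negative for Gadd45a (-2.04 ± 0.32, adjusted p = 0.00106).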

How the results depend on the processing

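Under the 9 other settings, the number of the 39 genes called was 13 to 19 for LPS against control (15 in the fit reported), 27 to 30 for Tm against control (28), 32 to 34 for Tm plus LPS against control (33), 21 to 24 for Tm plus LPS against LPS (23), 12 to 16 for Tm plus LPS against Tm (16) and 15 to 19 for Tm against LPS (18). Leaving out each library in turn gave 11 to 16, 25 to 29, 32 to 34, 20 to 25, 9 to 17 and 15 to 18 calls for the same 6 comparisons. Tm plus LPS against Tm gave 1618 genes of all tested, and 1068 to 1655 with a library left out; the lowest counts, 1068 genes and 9 of the 39, came without Tm replicate 2. The interaction gave 347 genes, and 228 to 352 with a library left out (228 without Tm replicate 3). It gave 1 of the 39 genes, 0 without filtering and 0 to 1 with a library left out. The cause was not tested. No call changed its direction. Some calls given above as lost without a library were also lost under other settings. Without filtering these included Cdc6 with Tm plus LPS against LPS (adjusted p = 0.0526) and Kif20a with LPS against control (0.0509). They also included Mcm2 with Tm plus LPS against Tm (0.0649). On the compared libraries alone, Cdk1 with Tm plus LPS against Tm no longer passed (0.0577). Of all genes called, the share that was higher was 57.2% for LPS against control and 47.1% for Tm against LPS, and 48.0% and 53.5% after quantile normalization. With that scaling Birc5, Ccna2, Mcm4 and Rrm1 newly passed with LPS against control (all lower), Cenpe and Foxm1 with Tm against control (lower), Ccnd2 (lower) and Cdc20 (higher) with Tm against LPS, and Ccnb2 with Tm plus LPS against control (lower), while Mcm3, Mcm6 and Tk1 no longer passed with Tm against LPS. Of 5680 values for single genes of the 39 under an alternative, 5531 kept direction and side of the threshold, 109 no longer passed and 40 newly passed. Of 4525 such values for named genes of the further lists, 4369 were kept.

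Libraries with the same replicate number deviated together weakly at most. Over the same-numbered pairs r was -0.04 to 0.09 with a median of 0.024, and none was over 0.1. Over the other pairs it was -0.11 to 0.05 with a median of -0.0004, and 8 of 12 libraries correlated best with their own number. The reported fit did not take the numbers as pairs, and an alternative used them as a block. With the replicate block the Cdt1 interaction no longer passed (adjusted p = 0.0513) and that of Cdc6 did (0.0484), as did Ccnb2 with Tm plus LPS against LPS (0.0458). The interaction was not fitted on the compared libraries alone, since it uses all 4 groups. No scaling moved the median of all genes by over 0.1. Read depth is unknown, so genes near 1 FPKM carry an unknown counting error.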

Other observations

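Some genes of the further lists moved against the trend of their list; they were singled out after their values were seen. Cdk6, a kinase partner of the D-type cyclins, had 15.1, 23.5 and 24.5 FPKM with Tm plus LPS, 10.3, 7.77 and 8.53 with Tm, 24.1, 26.2 and 29.6 with LPS and 13.8, 16.7 and 15.3 in control cells. It was lower with Tm (-0.72 ± 0.18), higher with LPS (0.77 ± 0.18) and higher with Tm plus LPS than with Tm (1.14 ± 0.18). Ckap2l, a spindle protein gene, had 8.11, 9.33 and 9.46 FPKM with Tm plus LPS, 10.8, 9.95 and 9.28 with Tm, 24.1, 24.6 and 24.6 with LPS and 13.9, 14.6 and 18.1 in control cells. It was the highest with LPS alone (0.63 ± 0.15 against control, adjusted p = 0.00603). Cks2, which binds CDK1, was also higher with LPS (0.86 ± 0.16, adjusted p = 0.000734). Pttg1, securin, was higher with LPS by 0.60 ± 0.17 (adjusted p = 0.0238), a call lost without control replicate 1 (0.135), LPS replicate 2 (0.102) or LPS replicate 3 (0.0533).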
